A study of Mus musculus with 12 samples.

Results

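The messenger RNAs of 9 coactivators and RNA-binding proteins that CARM1 works with or methylates were followed in mouse embryos that lacked CARM1 or PAX3. The genes were *Ncoa1*, *Ncoa2*, *Ncoa3*, *Crebbp*, *Ep300*, *Smarcc1*, *Med12*, *Pabpc1* and *Elavl1*. They were chosen by name from what is known of CARM1, not by their level, and were found as 9 of the 23420 genes listed in each of 2 tables of counts. All 9 passed the filter on low counts in both lines.

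Polyadenylated RNA came from whole embryos at E12.5, with 3 mutant and 3 wild-type embryos in each of 2 mouse lines. Carm1 KO/KO embryos were homozygous for Carm1tm1Mtb, a germline deletion of coding exons, and came with their wild-type controls from intercrosses of heterozygotes on C57BL/6. Pax3 Sp2H/Sp2H embryos (Splotch) were homozygous for a null allele of *Pax3* and came with their controls from heterozygotes of a closed colony on a mixed background. The strain, the colony and the table of counts differ between the lines and cannot be told apart from the line. Both alleles are lost in every cell of the embryo, and the controls carry the wild-type alleles.

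CARM1 is an arginine methyltransferase that transcription factors bring to chromatin. It binds the p160 coactivators NCOA1, NCOA2 and NCOA3, which are recruited by nuclear receptors and in turn recruit the acetyltransferases CBP and p300, encoded by *Crebbp* and *Ep300*. CARM1 methylates histone H3 and also proteins of this machinery, among them NCOA3, CBP, p300, the SWI/SNF subunit SMARCC1 (BAF155), the Mediator subunit MED12, and the RNA-binding proteins PABPC1 and HuR (encoded by *Elavl1*). Methylation acts on proteins. The counts measured here give mRNA only, and neither protein nor methylation was measured.

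Each targeted gene had less mRNA in its own mutants, though neither mRNA was absent. *Carm1* stood at 71.2, 69.2 and 76.1 CPM (counts scaled for library size by the TMM method of edgeR) in Carm1 KO/KO embryos and at 151, 145 and 137 CPM in their controls, a fall of 49.9% (adjusted *P* = 1.21e-15, edgeR quasi-likelihood test). Of the exon bases of *Carm1*, 21.1% are shared with a gene on the opposite strand, and the strand setting of the counting was not given in the sources used here. *Pax3* stood at 22.4, 22.0 and 18.1 CPM in Pax3 Sp2H/Sp2H embryos against 30.9, 24.9 and 28.3 CPM in controls (log2 fold change -0.43, adjusted *P* = 0.00142, edgeR). A fall of this size in mRNA does not by itself show a null allele. Library totals lay between 17183344 and 23518692 counts. Counts on 4 Y-linked genes were 4804 in Carm1 line wild-type replicate 3, 4447 and 6118 in Pax3 line wild-type replicates 2 and 3, 6102 in Pax3 Sp2H/Sp2H replicate 3 and at most 23 in the other 8 libraries.

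In Carm1 KO/KO embryos, 1 of the 9 genes was called. *Ncoa3* was 11.5% higher than in controls, while the remaining 8 stood within 5% of their controls and did not pass the test. At the same threshold (adjusted *P* below 0.05 over 15811 genes, edgeR) 13.3% of all genes were called and 5.49% were called higher. In Pax3 Sp2H/Sp2H embryos 5 of the 9 were lower, namely *Ncoa1*, *Ncoa2*, *Crebbp*, *Ep300* and *Pabpc1*, by 12.1% to 20.1%, and none was higher, beside 24.5% of all 15724 genes called and 10.5% called lower.

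**Figure D1:**
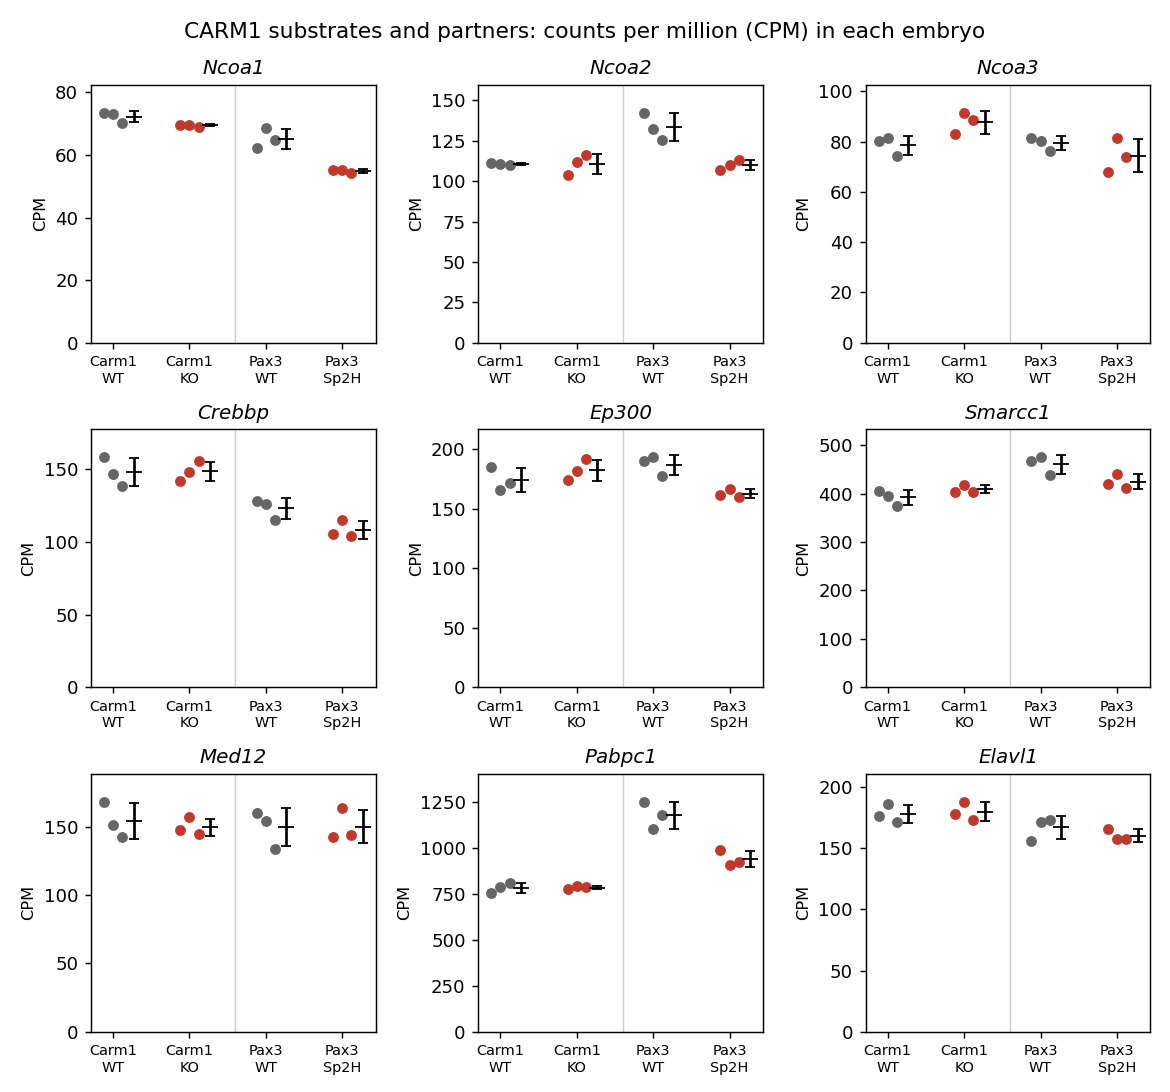
Level of each gene in each embryo, in CPM on axes that start at 0. Points are single embryos, grey for wild type and red for mutant, and the bars beside them give the mean ± SD (n = 3). *Pabpc1* and *Ncoa2* lie lower in all 3 Pax3 Sp2H/Sp2H embryos than in their controls, while their Carm1 KO/KO and control points overlap.

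*Ncoa1* (GRCm38, chr12:4247362-4477182, minus strand) encodes SRC-1, the p160 coactivator first found with steroid receptors. It had 69.6, 69.6 and 69.1 CPM in Carm1 KO/KO embryos and 73.5, 73.0 and 70.3 CPM in controls. The mutants lay just below every control, yet the log2 fold change was only -0.057 ± 0.050 (SE; 95% interval -0.16 to 0.045; adjusted *P* = 0.514, edgeR). The Pax3 line had 55.1, 55.3 and 54.3 CPM of it in mutants and 62.1, 68.5 and 64.7 CPM in controls. Here the groups stood well apart, and *Ncoa1* fell by 15.7% (log2 fold change -0.25 ± 0.060 SE, adjusted *P* = 0.00343; -0.15 and 0.071 with the length and GC offsets described with transcript length).

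The RefSeq promoter of *Ncoa1* is shown because it is the promoter of a gene that fell in the Pax3 line whose upstream window lies outside the annotated gene. It is the 250 bases before the start (GRCm38.p6, chr12:4477183-4477432, minus strand), written 5′ to 3′, with each GC box in capitals (GGGCGG or its reverse complement).
Ncoa1 promoter: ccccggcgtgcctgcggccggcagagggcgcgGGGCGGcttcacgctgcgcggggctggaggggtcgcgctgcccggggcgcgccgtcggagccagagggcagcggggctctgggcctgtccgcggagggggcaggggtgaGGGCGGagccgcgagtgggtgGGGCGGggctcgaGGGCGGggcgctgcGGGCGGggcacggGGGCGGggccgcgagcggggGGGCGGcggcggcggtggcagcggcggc
The window held 7 GC boxes and was 85.6% G or C. Among the 6 of the 9 genes in the promoter table, *Crebbp* had 2 GC boxes, *Ep300*, *Med12* and *Smarcc1* had 1 each and *Elavl1* none, and 32.7% of 32851 promoters searched in the same way had at least 1. The windows of *Crebbp* and *Ep300* overlap the annotated gene and may hold transcribed sequence. Those of *Med12*, *Smarcc1* and *Elavl1* were not checked for such overlap. None of the 6 windows held the nuclear receptor half-site AGGTCA (14.0% of all promoters) or GTCAC, the core of the PAX paired-domain site (39.8%), on either strand. The ETS core CCGGAA (12.03%) occurred in *Med12* and *Smarcc1*. These are matches of letters in a short window and were chosen with the expression values known.

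*Ncoa2* (chr1:13139105-13374083, minus strand) encodes GRIP1, the p160 protein through which CARM1 was first isolated. Its level in the Carm1 line was 104, 112 and 116 CPM in mutants and 111, 111 and 110.3 CPM in controls. The controls fell inside the range of the mutants and the log2 fold change was 0.0018 ± 0.048 SE (95% interval -0.096 to 0.099). Levels in the Pax3 line were 107, 109.9 and 113 CPM in mutants against 142, 132 and 125 CPM in controls, a fall of 17.5% with no overlap (log2 fold change -0.28 ± 0.057 SE, adjusted *P* = 7.28e-04, edgeR).

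*Ncoa3* (chr2:165992636-166073242, plus strand) encodes SRC-3, the p160 member that is itself methylated by CARM1. Carm1 KO/KO embryos had 82.8, 91.5 and 88.5 CPM and controls had 80.1, 81.3 and 74.3 CPM. Every mutant was above every control, by little in replicate 1 (log2 fold change 0.16 ± 0.052 SE, adjusted *P* = 0.0397). The call held in 7 of 15 alternatives. Among the losses were those with DESeq2 (adjusted *P* = 0.0954), in a single fit of the 12 libraries (0.0903), with Y-linked counts as a covariate (0.151), and on omitting a library in 4 of 6 cases, namely without Carm1 KO/KO replicate 2 (0.216) or 3 (0.129) or wild-type replicate 2 (0.0552) or 3 (0.149). In this line the Y-linked covariate marked wild-type replicate 3 alone. That fit and the one without this library are therefore nearly the same check. The log2 fold change stayed between 0.12 and 0.20 in all 15 alternatives. Across the Pax3 line *Ncoa3* had 68.1, 81.2 and 73.7 CPM in mutants and 81.4, 80.3 and 76.4 CPM in controls, overlapping ranges with a log2 fold change of -0.095 ± 0.063 SE (95% interval -0.22 to 0.034, adjusted *P* = 0.291).

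The acetyltransferase *Crebbp* (chr16:4081328-4213997, minus strand) had 142, 148 and 155 CPM in Carm1 KO/KO embryos and 158, 147 and 139 CPM in controls. The ranges lay on top of each other (log2 fold change 0.0059 ± 0.049 SE, 95% interval -0.094 to 0.11). Pax3 Sp2H/Sp2H embryos had 105, 115 and 104 CPM and their controls had 128, 126 and 115 CPM. The highest mutant lay just above the lowest control, so this was the one call among the 5 with overlapping groups (log2 fold change -0.19 ± 0.059 SE, adjusted *P* = 0.0216). It was lost without Pax3 Sp2H/Sp2H replicate 1 (adjusted *P* = 0.101) or 3 (0.126) and without wild-type replicate 1 (0.0684) or 2 (0.074), and also with length and GC offsets (log2 fold change -0.11, adjusted *P* = 0.0995).

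Its paralog *Ep300* (chr15:81585351-81652077, plus strand) had 174, 181 and 192 CPM in Carm1 KO/KO embryos and 185, 165 and 171 CPM in controls. The highest control exceeded 2 of the 3 mutants, and the log2 fold change was 0.070 ± 0.047 SE (95% interval -0.027 to 0.17, adjusted *P* = 0.374). Its Pax3 line values were 161, 167 and 159.95 CPM in mutants and 190.2, 193 and 178 CPM in controls. The groups were apart and *Ep300* fell by 13.0% (log2 fold change -0.20 ± 0.052 SE, adjusted *P* = 0.00632), a call not made with length and GC offsets (-0.12, adjusted *P* = 0.0535).

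*Smarcc1* (chr9:110117708-110240178, plus strand), a scaffold subunit of the SWI/SNF chromatin remodelers, had 404, 419 and 404 CPM in Carm1 KO/KO embryos and 406, 395 and 375 CPM in controls. The difference was 0.061 ± 0.043 SE on the log2 scale (95% interval -0.028 to 0.15, adjusted *P* = 0.402). Pax3 Sp2H/Sp2H embryos had 420.1, 441 and 411 CPM and their controls had 468, 476 and 438 CPM. One mutant lay above the lowest control, and the log2 fold change of -0.12 ± 0.061 SE missed the threshold (95% interval -0.24 to 0.0082, adjusted *P* = 0.167).

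*Med12* (chrX:101274030-101297465, plus strand) encodes the subunit that activates the kinase module of Mediator. It had 148, 157 and 145 CPM in Carm1 KO/KO embryos and 168, 151 and 142 CPM in controls, and in the Pax3 line 142, 164 and 144 CPM in mutants and 160.4, 154 and 134 CPM in controls. Spread among replicates was wide and no difference was detected (log2 fold changes -0.039 ± 0.052 SE, 95% interval -0.14 to 0.067, and 0.0051 ± 0.066 SE, 95% interval -0.13 to 0.14). This gene is X-linked, and the libraries with Y-linked counts are unequal between groups. With a term for those libraries the log2 fold changes were -0.091 and -0.035, neither past the threshold. Of its exon bases, 9.72% are shared with another gene on the same strand.

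*Pabpc1* (chr15:36595661-36609668, minus strand), which encodes the main cytoplasmic poly(A)-binding protein, was the most abundant of the 9. Its level was 776, 790.4 and 787 CPM in Carm1 KO/KO embryos and 752, 785 and 809 CPM in controls, with the mutants inside the range of the controls (log2 fold change 0.0043 ± 0.046 SE, 95% interval -0.090 to 0.099). The 3 mutants of the Pax3 line had 990.1, 906 and 926 CPM and the controls had 1252, 1103 and 1178 CPM. Every mutant was below every control, a fall of 20.1% (log2 fold change -0.32 ± 0.070 SE, adjusted *P* = 0.00117). *Pabpc1* has processed pseudogenes, and how reads that align to several places were counted is not given in the sources used here, so its level is uncertain.

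*Elavl1* (chr8:4285382-4325413, minus strand) encodes HuR, which binds AU-rich elements of mRNAs. Carm1 KO/KO embryos had 178, 188 and 173 CPM and controls had 176, 186 and 171 CPM, nearly the same 3 levels. Pax3 Sp2H/Sp2H embryos had 166, 158 and 157 CPM and controls had 156, 171 and 173 CPM. Neither line showed a difference at this depth (log2 fold changes 0.017 ± 0.045 SE, 95% interval -0.075 to 0.11, and -0.059 ± 0.055 SE, 95% interval -0.17 to 0.053).

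As a list, the 9 genes in the Carm1 line had 7 positive and 2 negative log2 fold changes, with a median of 0.0059 beside 0.0014 for all genes tested. Groups did not overlap for 2 of them (*Ncoa1* and *Ncoa3*, in opposite directions), against 30.0% of all genes. For the Pax3 line 8 of 9 log2 fold changes were negative, with a median of -0.19 beside -0.0025 for all genes, and groups did not overlap for 4 (*Ncoa1*, *Ncoa2*, *Ep300* and *Pabpc1*, all lower in mutants) against 39.6% of all genes. An exact permutation test on one gene has a smallest possible *P* of 0.1 in a design of 3 against 3, and the calls therefore rest on the model fitted across all genes. RNA came from whole embryos, so fewer cells that express a gene and less of its RNA per cell cannot be told apart.

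Transcript length moved with the result in the Pax3 line. Genes in the shortest quartile of longest annotated transcript had a median log2 fold change of 0.16 and those in the longest quartile (from 4786 bases) -0.099, and 2.97% and 21.9% of them were called lower. The longest quartile held 8 of the 9 genes, all but *Pabpc1* (2916 bases). *Pabpc1* sits in the second quartile, where the median was 0.027 and 6.05% of genes were called lower. When every library was given offsets for length and GC content, *Ncoa2* (log2 fold change -0.17, adjusted *P* = 0.0118) and *Pabpc1* (-0.27, adjusted *P* = 7.78e-04) were still called, whereas *Ncoa1* (-0.15, adjusted *P* = 0.071), *Ep300* (-0.12, adjusted *P* = 0.0535) and *Crebbp* (-0.11, adjusted *P* = 0.0995) were not. In the Carm1 line the quartile medians ran only from 0.0093 to -0.0089, and with the offsets *Ncoa3* (0.20, adjusted *P* = 5.55e-04), *Ep300* (0.12, adjusted *P* = 0.0147) and *Smarcc1* (0.098, adjusted *P* = 0.0311) were called higher. The offsets moved all genes of that line too, from a median of 0.0014 to 0.030 and from 868 higher and 1238 lower to 1939 higher and 1281 lower, and in the Pax3 line from 2197 higher and 1651 lower to 1435 higher and 1149 lower. The part of length in these results was not tested further.

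**Figure D2:**
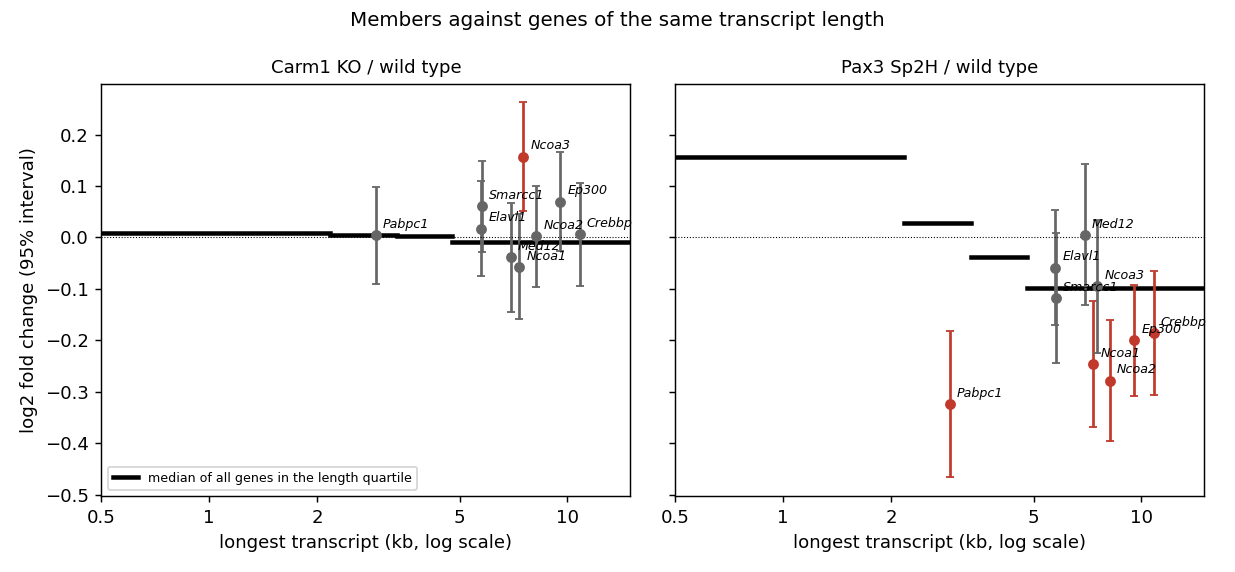
Log2 fold change of each gene (points, with 95% intervals; red where called) against its longest annotated transcript in kb on a log axis, in the Carm1 line (left) and the Pax3 line (right). Black lines give the median of all genes in each length quartile, cut at 0.5 and 15 kb for display. On the right the medians step down from 0.16 to -0.099, and *Pabpc1* lies far below the median of its quartile.

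The effect in the Carm1 line minus that in the Pax3 line was tested as an interaction over all 12 libraries, in which 19.1% of 16292 genes were called and 8.65% were called higher. A higher value means a more positive effect in Carm1 KO/KO than in Pax3 Sp2H/Sp2H embryos. Differences passed for 4 of the 9, *Pabpc1* (0.34 ± 0.082 SE, adjusted *P* = 0.00323), *Ncoa2* (0.29 ± 0.075 SE, adjusted *P* = 0.00562), *Ep300* (0.28 ± 0.071 SE, adjusted *P* = 0.00489) and *Ncoa3* (0.26 ± 0.084 SE, adjusted *P* = 0.026), all higher. *Pabpc1*, *Ncoa2* and *Ep300* were called in all 20 alternatives, length and GC offsets included, and *Ncoa3* in 14 of the 20. It was lost only in fits that left out 1 library, Carm1 KO/KO replicate 2 (adjusted *P* = 0.0888) or 3 (0.0561), Carm1 line wild-type replicate 3 (0.0772), Pax3 line wild-type replicate 1 (0.0516) or Pax3 Sp2H/Sp2H replicate 1 (0.107) or 3 (0.0587). The length and GC offsets also moved the difference for all genes, from a median of -0.0010 to 0.026. Genes called went from 1410 higher and 1705 lower to 1610 higher and 1271 lower.

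*Ncoa1* (0.20, adjusted *P* = 0.0599), *Crebbp* (0.20, adjusted *P* = 0.0684) and *Smarcc1* (0.19, adjusted *P* = 0.0552) did not pass in this fit, with 95% intervals that began at 0.046, 0.042 and 0.046. Among 20 alternatives *Smarcc1* passed in 6, with DESeq2 (0.0208) and with Y-linked counts as a covariate (0.0323) among them, *Crebbp* in 5, including that covariate (0.0413) and the length and GC offsets (0.0295), and *Ncoa1* in 1, without Pax3 line wild-type replicate 1 (0.0312). *Med12* (-0.033, 95% interval -0.24 to 0.17) and *Elavl1* (0.087, 95% interval -0.056 to 0.23) had intervals that spanned 0.

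**Figure D3:**
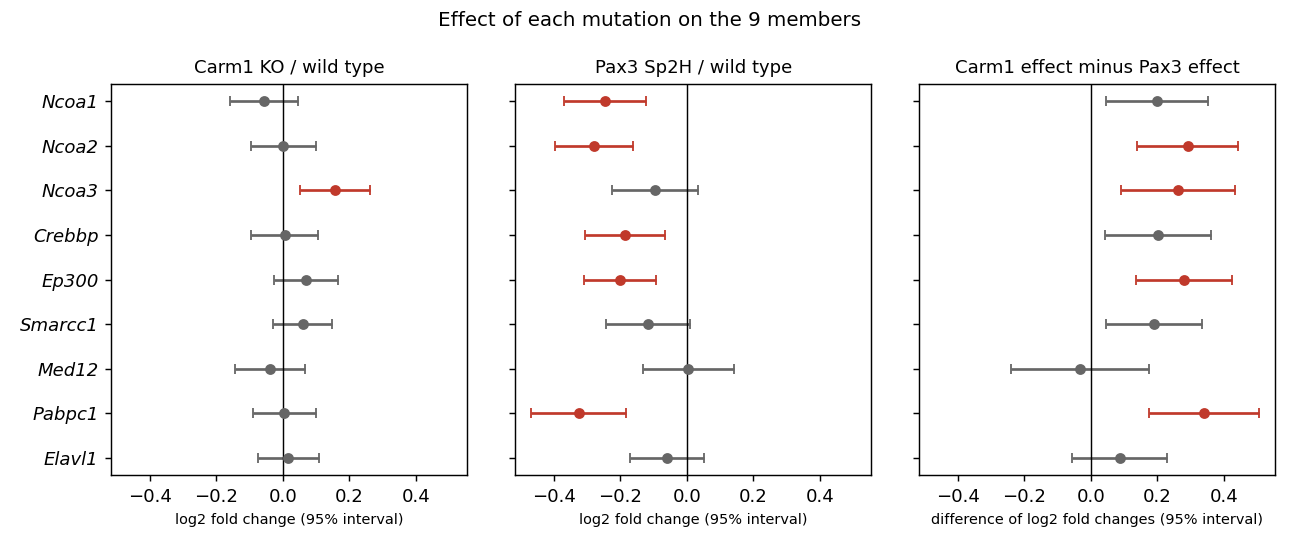
Log2 fold change of mutant over wild type in the Carm1 line (left) and the Pax3 line (middle), and the difference of the 2 effects (right), with 95% intervals. Red marks an adjusted *P* below 0.05. *Ncoa3* alone is red on the left, 5 genes are red below 0 in the middle, and 4 genes are red above 0 on the right.

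Levels were compared between genes per kb of annotated exon. In wild-type embryos of the Carm1 line *Pabpc1* stood highest at 119.6 ± 4.31 CPM per kb (SD, n = 3), followed by *Smarcc1* at 50.1 ± 1.98, *Med12* at 19.99 ± 1.72, *Elavl1* at 17.1 ± 0.706, *Ep300* at 12.2 ± 0.705, *Crebbp* at 10.9 ± 0.725, *Ncoa3* at 9.95 ± 0.480, *Ncoa1* at 8.42 ± 0.204 and *Ncoa2* at 7.07 ± 0.0238. Only the neighbours *Ep300* and *Crebbp*, and *Crebbp* and *Ncoa3*, had overlapping values in these 3 embryos. On this scale the 3 p160 genes were the lowest of the 9 by mean, with the acetyltransferases just above them. In wild-type embryos of the Pax3 line the upper part of the order was the same from *Pabpc1* (180.1 ± 11.4) to *Ep300* (13.1 ± 0.588), and *Ncoa3* (10.1 ± 0.334), *Crebbp* (9.08 ± 0.536), *Ncoa2* (8.52 ± 0.550) and *Ncoa1* (7.59 ± 0.376) followed, with overlap of *Crebbp* and *Ncoa2* only. Within groups the coefficient of variation of a gene's CPM ran from 0.336% to 9.30%. Paralogs such as the 3 p160 genes share sequence, and annotated exons outside the transcripts used in the embryo would lower a per kb level. Annotated exons of *Ncoa2* total 15642 bases and its longest transcript 8171, and for *Elavl1* these are 10363 and 5743. The order of the genes would change if levels were divided by the longest transcript.

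Other proteins of the same machinery were taken from lists written with earlier results of these data known. Their counts of calls stand beside shares of 13.3% of all genes called in the Carm1 line and 24.5% in the Pax3 line. Of 15811 genes in the Carm1 line, 868 were called higher and 1238 lower. Of 15724 genes in the Pax3 line, 2197 were called higher and 1651 lower. Among 7 other transcriptional acetyltransferases none was called in the Carm1 line (median log2 fold change 0.023) and 3 were lower in the Pax3 line (median -0.11). Those 3 were *Kat6a* (-0.22, adjusted *P* = 0.00335), *Kat7* (-0.21, adjusted *P* = 0.00512) and *Kat6b* (-0.20, adjusted *P* = 0.00751, edgeR), all of the MYST family. *Kat5* and *Kat8*, of the same family, were not called. *Kat8* stood higher in every mutant of that line (30.1 to 31.6 CPM) than in the controls (25.3 to 28.5 CPM). With length and GC offsets, *Kat6a* (-0.10) and *Kat6b* (-0.088) were no longer called. The 6 genes of the NCoR/SMRT corepressor complex, which opposes the p160 proteins at nuclear receptors, had no call in the Carm1 line (median -0.0032), but Pax3 Sp2H/Sp2H embryos showed calls for 3 of them. *Ncor1* (-0.25, adjusted *P* = 0.00225) and *Tbl1x* (-0.18, adjusted *P* = 0.0175) were lower and *Gps2* (0.21, adjusted *P* = 0.0138) higher, and the last 2 were not called with the offsets, under which *Gps2* changed sign (-0.051) and *Ncor1* was -0.14 (adjusted *P* = 0.0304).

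Of the nuclear receptors that recruit p160 proteins, 2 of 15 tested fell in the Carm1 line, the thyroid hormone receptor *Thra* (-0.36, adjusted *P* = 1.99e-06) and the glucocorticoid receptor *Nr3c1* (-0.23, adjusted *P* = 0.0136). The call of *Nr3c1* held in 10 of 15 alternatives. Splotch embryos had 3 of 13 higher, *Rxrb* (0.46, adjusted *P* = 1.44e-05), *Thra* (0.27, adjusted *P* = 0.00272) and the retinoic acid receptor *Rarg* (0.20, adjusted *P* = 0.0121). *Thra* thus passed in opposite directions in the lines, and its effects differed by -0.62 (adjusted *P* = 2.59e-06, interaction), though with the offsets its change in the Pax3 line alone (0.094, adjusted *P* = 0.313) was not called. The same offsets ended the call of *Rarg* (0.071, adjusted *P* = 0.355) and reduced *Rxrb* to 0.27.

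Partners of SMARCC1 in SWI/SNF gave 2 higher and 3 lower genes of 24 in the Carm1 line (median 0.048), among them the ATPase *Smarca2* (-0.28, adjusted *P* = 8.66e-05), *Actl6a* (0.20, adjusted *P* = 0.00562) and *Arid2* (0.14, adjusted *P* = 0.0244). The call of *Arid2* held in 9 of 15 alternatives. It was lost with Y-linked counts as a covariate (0.0517), which in this line marks wild-type replicate 3 alone. Splotch embryos had 7 higher and 4 lower genes (median -0.050), led by *Dpf1* (0.49, adjusted *P* = 1.86e-05), *Bcl7c* (0.60, adjusted *P* = 2.99e-05) and the PBAF subunit *Pbrm1* (-0.23, adjusted *P* = 0.00379), and with the offsets 3 were higher and 3 lower, without *Pbrm1*. For the 32 other genes of Mediator no call was made in the Carm1 line (median 0.014; 3 were called higher with the offsets). For Splotch embryos 7 of the 32 Mediator genes were higher and 3 lower (median 0.018), beside 24.5% of all genes called in that line. Among them *Med22* (0.32, adjusted *P* = 3.78e-04) and *Med28* (0.44, adjusted *P* = 9.00e-04) were higher. The backbone subunit *Med14* (-0.27, adjusted *P* = 8.84e-04) was lower, reduced to -0.14 (adjusted *P* = 0.0392) by the offsets.

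Further described CARM1 substrates were higher in 5 and lower in 1 of 17 in the Carm1 line, with a median of 0.087 beside 0.0014 for all genes. The named genes are the neural and pluripotency factor *Sox2* (0.33, adjusted *P* = 6.60e-06), the glycolytic enzyme *Pkm* (0.22, adjusted *P* = 0.00134) and the blood cell factor *Runx1* (-0.40, adjusted *P* = 0.00225). Splotch embryos had 3 higher and 3 lower genes (median 0.021), including *Snrpb* (0.61, adjusted *P* = 1.86e-05), *Sox2* (0.29, adjusted *P* = 0.00271) and *Polr2a*, the largest subunit of RNA polymerase II (-0.26, adjusted *P* = 0.00537). Relatives and partners of PABPC1 and HuR gave 2 lower genes of 9 in the Carm1 line, *Pabpc4* (-0.19, adjusted *P* = 0.00149) and the neuronal Hu gene *Elavl3* (-0.16, adjusted *P* = 0.0111). On the loss of PAX3 the nuclear poly(A)-binding protein gene *Pabpn1* (0.58, adjusted *P* = 1.83e-07) and *Paip2* (0.21, adjusted *P* = 0.00608) were higher and *Elavl4* (-0.30, adjusted *P* = 6.19e-04) was lower. With the offsets *Pabpn1* was 0.39 and *Elavl4* -0.16, both still called.

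**Figure D4:**
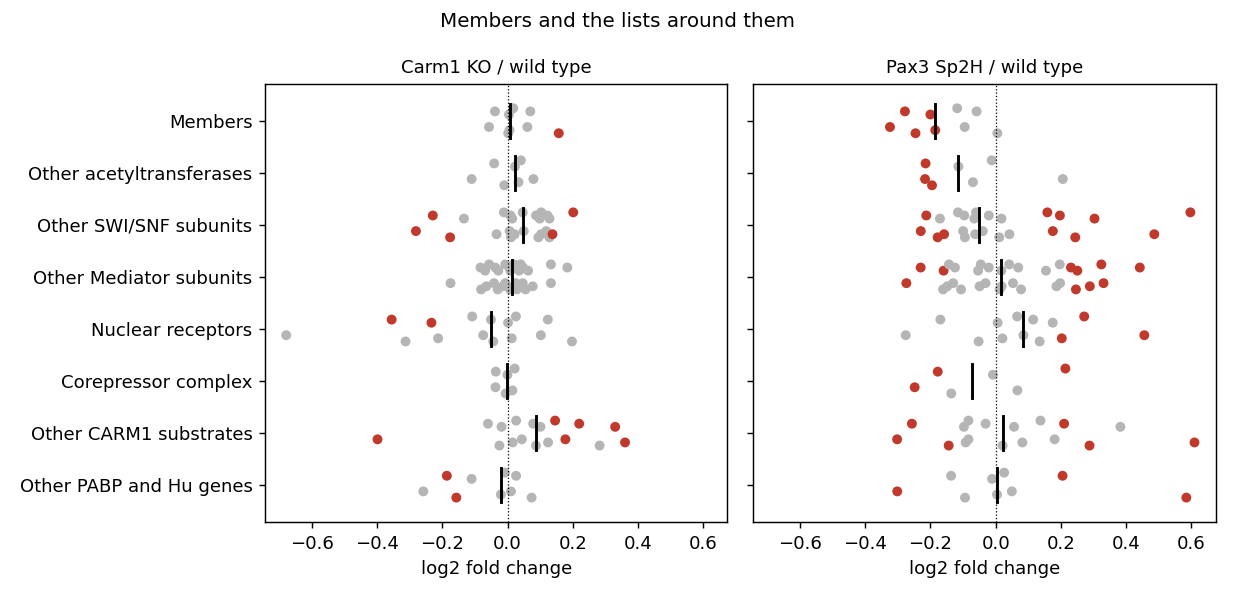
Log2 fold change of the 9 genes and of the genes of each list around them in the Carm1 line (left) and the Pax3 line (right). Points are genes, red where the adjusted *P* was below 0.05, and black bars are medians. In the Pax3 line the 9 genes have the lowest median (-0.19), followed by the other acetyltransferases (-0.11).

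Markers of cell types moved with genotype in both lines. In Carm1 KO/KO embryos 8 of 8 muscle, 6 of 6 hepatocyte, 4 of 6 erythroid, 2 of 8 neuronal and 2 of 6 mesenchymal markers were lower and 1 erythroid marker was higher, and in Pax3 Sp2H/Sp2H embryos 5 of 8 neuronal, 5 of 8 muscle and 1 of 6 hepatocyte markers were lower and 1 muscle, 1 erythroid and 1 mesenchymal marker higher. Summed neuronal markers were 1718 to 1773 CPM in Carm1 KO/KO embryos and 1851 to 1995 CPM in controls, and 1632 to 1759 and 1866 to 2002 CPM in the Pax3 line. Summed muscle markers were 726 to 748 CPM against 971 to 1075 CPM, and 471 to 566 against 628 to 743 CPM in the Pax3 line. For hepatocyte markers the sums were 737 to 848 against 1382 to 1670 CPM, and 856 to 944 against 1016 to 1248 CPM in the Pax3 line. Erythroid sums went the other way in the Carm1 line, 2391 to 2782 against 1030 to 1722 CPM. Most of the 6 erythroid markers did not share that rise, since 4 were lower and 1 was higher. Their median log2 fold change was -0.49 and the highest was 1.30. Erythroid sums overlapped in the Pax3 line, with 1898 to 2312 against 1631 to 2308 CPM. Placental markers summed to at most 0.713 CPM in any library. The part of cell composition in the levels of the 9 genes was not tested.

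For each of the 9 genes the gene most like it over the 12 libraries, after the mean of its line was removed, was sought among 14841 genes. The Pearson correlation of log2 CPM was 0.989 for *Pabpc1* with *Rbm27*, 0.981 for *Crebbp* with *Atxn2* and 0.971 for *Smarcc1* with *Dhx8*. It was 0.967 for *Ncoa3* with *Inf2*, 0.965 for *Ncoa2* with *Bgn*, 0.953 for *Ncoa1* with *Prdm12*, 0.951 for *Ep300* with *Mkl2* and 0.926 for *Med12* with *Plxnd1*. *Elavl1* had no close match, with 0.839 for *Eif3f*. These values describe the best of many genes over 12 libraries that share depth and length effects. Only the mean of each line was removed, so the difference between mutant and wild type remains in them.

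**Figure D5:**
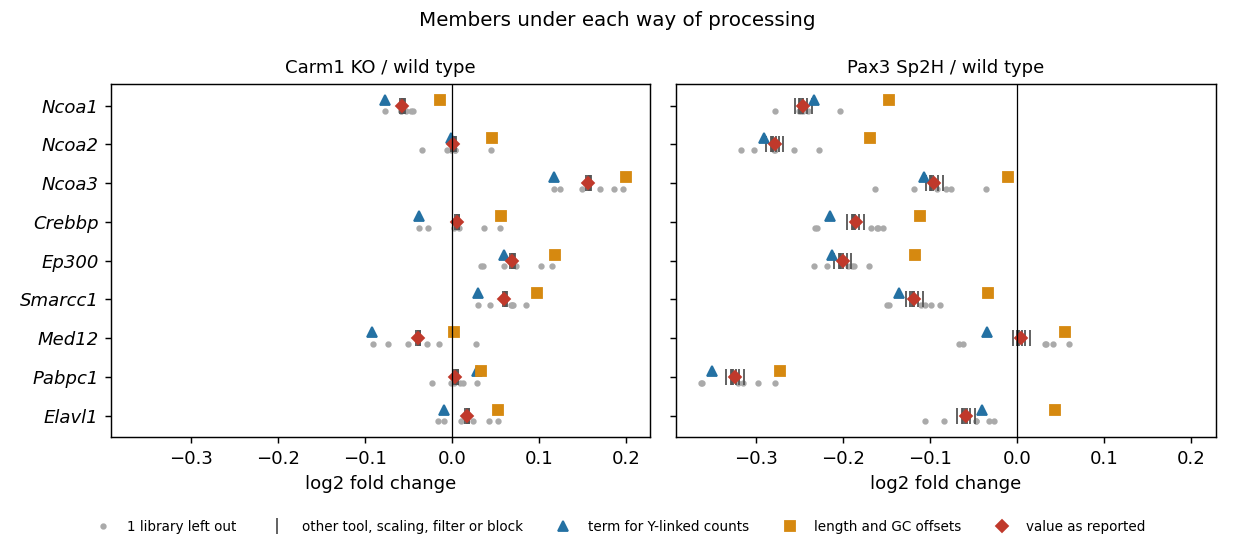
Log2 fold change of each gene under each way of processing, in the Carm1 line (left) and the Pax3 line (right). Diamonds are the values reported, squares the fit with length and GC offsets, triangles the fit with a term for Y-linked counts, ticks other tools, scalings, filters and the replicate block, and dots the fits without 1 library. Squares lie to the right of the diamonds in every row, by the most in the Pax3 line.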

How the data were processed

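RNA from 12 whole E12.5 embryos, 3 per group, was sequenced as polyadenylated RNA. According to the submitters' processing notes, the authors used STAR, featureCounts and mm10. The deposited values are raw counts per gene and library, without normalization or pooling. Tool versions, the strand setting and the handling of multi-mapped reads are not given in the sources used here. Groups and replicate numbers come from the sample labels. Nothing ties embryos to litters, so shared litters could not be taken into account. The *P* values treat embryos as independent and judge differences against the spread between them, estimated with information shared across genes.

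Each line was tested with edgeR 4.0.16 in R 4.3.3 (TMM, filterByExpr, robust quasi-likelihood test, Benjamini-Hochberg adjustment over all genes tested, threshold 0.05), and the difference of the lines as an interaction over 12 libraries. The scripts were tested on simulated data. The changes planted there were larger than those of the 9 genes, and no length or GC effect was included. That test cannot decide how well changes as small as these are called. CPM values are counts scaled by TMM in each line, and likeness used log2(CPM + 0.5) where the mean CPM was 1 or more. Fold changes are mutant over wild type. Positions, exon overlaps and lengths come from GENCODE M21 (GRCm38, the build of mm10), in which 21777 symbols were found directly, 1265 by a synonym and 378 not at all. Promoters come from RefSeq (GRCm38.p6), which listed 6 of the 9 genes.

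The genes, lists and tests were chosen with earlier results of these data known. Named are the 9 genes, the targeted genes, and in each list up to 3 called genes with the smallest adjusted *P* in each line (markers by count only). Alternatives were DESeq2 1.42.0, RLE or upper-quartile factors, no filter, at least 10 counts in every library, 1 fit of 12 libraries, the replicate number as a block, a term for libraries with at least 100 Y-linked counts, offsets for length and GC content (splines with 5 degrees of freedom), and each library left out. In the Carm1 line the Y-linked term marks wild-type replicate 3 alone and so nearly repeats the fit without that library.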

Additional observations from a re-analysis of the deposited data

Results flagged for a closer look

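The effects of the 2 mutations differed by the interaction test (edgeR, Carm1 line minus Pax3 line, on the log2 scale) for 25 of the genes named. Of all 16292 genes, 19.1% were called. The list genes were named because they were called in at least 1 of the lines, and *Carm1* and *Pax3* are the mutated genes. The count of 25 is therefore no result about the named genes as a set. Among the 9 coactivator and RNA-binding protein genes, those that differed were *Pabpc1* (0.34), *Ncoa2* (0.29), *Ep300* (0.28) and *Ncoa3* (0.26). The targeted genes differed too, by -0.92 for *Carm1* and 0.82 for *Pax3*. The value for *Pax3* was made up of a rise in Carm1 KO/KO embryos (0.37, adjusted *P* = 0.00102, with 30.4, 29.3 and 27.4 CPM in mutants against 20.4, 22.4 and 24.2 CPM in controls) and a fall in Pax3 Sp2H/Sp2H embryos (-0.43).

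In the lists around them the effect was more positive in the Carm1 line for *Arid2* (0.24), *Pbrm1* (0.25), *Med14* (0.33), *Ncor1* (0.26), *Kat6a* (0.26), *Kat6b* (0.20), *Kat7* (0.27) and *Elavl4* (0.31). It was more negative for *Dpf1* (-0.35), *Bcl7c* (-0.57), *Med22* (-0.34), *Med28* (-0.50), *Thra* (-0.62), *Rarg* (-0.27), *Rxrb* (-0.32), *Snrpb* (-0.62), *Pabpn1* (-0.50), *Paip2* (-0.21) and *Elavl3* (-0.20). The call of a difference held in 8 of 20 alternatives for *Paip2* (lost also with DESeq2, adjusted *P* = 0.0688, and RLE factors, 0.0525), 11 for *Kat6b*, 12 each for *Elavl3* and *Rarg*, 13 for *Med28*, 14 for *Ncoa3*, 18 for *Pbrm1* and 19 for *Rxrb*, and in all 20 for the other genes given here. For *Elavl3* every loss came on leaving out 1 library (adjusted *P* up to 0.123, without Pax3 Sp2H/Sp2H replicate 1). With length and GC offsets the difference was no longer called for *Pbrm1* (0.13), *Kat6b* (0.13), *Med28* (-0.56), *Rarg* (-0.14), *Rxrb* (-0.15) and *Paip2* (-0.15).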

How the results depend on the processing

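The number of the 9 genes called in the Carm1 line fell from 1 to 0 with DESeq2, in 1 fit of 12 libraries, with the replicate block and with the Y-linked term, and rose to 3 with length and GC offsets, under which 3220 genes in all were called (2106 as reported) and the median of the 9 was 0.053. In the Pax3 line it fell from 5 to 2 with the offsets (median -0.11), beside a fall from 3848 to 2584 in all genes called and from 1651 to 1149 in those called lower. Leaving out each library in turn gave 0 to 1 of the 9 called in the Carm1 line, 4 to 5 in the Pax3 line and 3 to 6 for the difference, with 1224 to 2290, 2454 to 4103 and 2311 to 3390 genes in all and medians of -0.00078 to 0.037 and -0.23 to -0.15. All genes called moved by over 1.5 times without Carm1 KO/KO replicate 1 (1224) or 2 (1381), Carm1 line wild-type replicate 2 (1349), or Pax3 Sp2H/Sp2H replicate 1 (2563) or 3 (2454). RLE and upper-quartile factors changed no call of the 9 in either line.

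Apart from *Gps2* in the Pax3 line (-0.051 with the offsets), only genes that were not called changed sign. In the Carm1 line *Ncoa2* was -0.00032 with at least 10 counts in every library and -0.00058 with the Y-linked term, under which *Crebbp* was -0.038 and *Elavl1* -0.0090, and *Med12* was 0.0026 with the offsets. In the Pax3 line *Med12* was -0.0049 in 1 fit of 12 libraries and -0.035 with the Y-linked term, and *Elavl1* was 0.044 with the offsets. Without 1 library the Carm1 line gave -0.035 to 0.045 for *Ncoa2*, -0.038 to 0.055 for *Crebbp*, -0.091 to 0.028 for *Med12*, -0.023 to 0.029 for *Pabpc1* and -0.016 to 0.053 for *Elavl1*, and *Med12* ran from -0.066 to 0.060 in the Pax3 line and from -0.091 to 0.043 for the difference. The cause was not tested.

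Some list genes also lost their call (adjusted *P* by edgeR) without 1 library. In the Carm1 line they were *Arid2* without mutant replicate 2 (0.107) or 3 (0.106) or wild-type replicate 2 (0.0787) or 3 (0.0519), *Nr3c1* without mutant replicate 1 (0.0719) or 3 (0.0635) or wild-type replicate 3 (0.0605), and without mutant replicate 1 or wild-type replicate 2 both *Actl6a* (0.066, 0.0515) and *Elavl3* (0.058, 0.0638). In the Pax3 line they were *Rarg* without wild-type replicate 1 (0.0521) or mutant replicate 3 (0.095), and without mutant replicates 1 or 3 both *Gps2* (0.0945, 0.0547) and *Tbl1x* (0.0859, 0.0771).

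The labels do not say whether replicate numbers pair the samples. Same-numbered mutant and wild-type libraries had correlations of their deviations between -0.053 and -0.0016 in the Carm1 line and -0.079 and 0.25 in the Pax3 line. Differently numbered libraries had -0.014 to 0.059 and -0.36 to 0.24. So few values cannot decide whether the samples are paired. With the replicate block 0, 5 and 5 of the 9 genes and 1787, 4173 and 3059 genes in all were called in the Carm1 line, the Pax3 line and for the difference, against 1, 5 and 4 and 2106, 3848 and 3115. With the block the calls of *Ncoa3* (adjusted *P* = 0.0588) and *Arid2* (0.0522) in the Carm1 line were lost and the difference of the lines was called for *Smarcc1* (0.0451). Standard errors of the 9 genes within the lines were 0.043 to 0.070, so changes of a few percent were not detectable with 3 embryos a group. The smallest log2 fold change called among them was 0.16 (*Ncoa3*, Carm1 line). One of -0.12 (*Smarcc1*, Pax3 line) was not called, and changes of that size may also have been missed.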
